A study of Rattus norvegicus with 6 samples.

Results

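The genes described here encode the nuclear subunits of the mitochondrial respiratory chain and ATP synthase, measured in rat renal cortex after phenylbutazone. They were taken by gene symbol alone: every non-control probe whose accession maps to a rat RefSeq symbol starting with Ndufa, Ndufb, Ndufc, Ndufs, Ndufv, Uqcr, Cox4i, Cox5, Cox6, Cox7, Cox8 or Atp5, or equal to one of Sdha to Sdhd, Cyc1 or Cycs. The rule found 84 genes on 152 of the 61537 non-control probes, and 83 of them were among the 29938 genes tested. By role, 31 were counted with complex I, 4 with complex II, 8 with complex III, 1 as cytochrome c, 17 with complex IV and 16 with complex V and its inhibitor Atp5if1. The prefix Ndufa also takes 6 complex I assembly factors (Ndufaf), which are no subunits, and the prefix Cox6 takes the pseudogene Cox6c-ps1. Ndufa4 was counted with complex IV, where its protein is now placed. Cox7a2l was counted there by its symbol, and whether its protein is a subunit was not examined.

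Total RNA of the renal cortex came from 6 male Sprague-Dawley rats, Crl:CD(SD), bought at 5 weeks of age. The vehicle group of 3 rats received corn oil and the phenylbutazone group of 3 rats received 200 mg/kg/day of phenylbutazone, an anti-inflammatory inhibitor of cyclooxygenases, both for 4 weeks. The rats carried no allele or other agent that the labels name, and 1 one-colour array was used per rat. The comparison of the groups asks which transcripts of the cortex differ after dosing.

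The respiratory chain passes electrons from NADH through complex I, or from succinate through complex II, to coenzyme Q, then through complex III and cytochrome c to oxygen at complex IV. Complexes I, III and IV pump protons across the inner mitochondrial membrane, and complex V, ATP synthase, uses the return flow to make ATP. The renal cortex is rich in proximal tubule cells, which are packed with mitochondria and depend on this ATP for sodium transport. Subunits of complexes I, III, IV and V are encoded partly in the nucleus and partly in mitochondrial DNA, whereas complex II is wholly nuclear.

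Transcription of many of these nuclear genes is known to depend on nuclear respiratory factor 1 (NRF1), which binds a GC-rich palindrome, and on the ETS factor GABP. RefSeq promoters of the assembly GRCr8 were matched for 74 of the 84 genes, and the 250 bases before each start were searched on both strands for exact letters. The palindrome CGCATGCG was found in 10 of 74 (13.5%), against 1.47% of all 33469 promoters in the table and 1.93% of the 21851 of protein-coding genes. The ETS core CGGAAG was found in 36 of 74 (48.6%), against 13.9% of all and 16.8% of protein-coding promoters, and its longer form CCGGAAGT, which contains it, in 7 of 74 (9.46%), against 3.10% of all. Both the palindrome and the ETS core were found in 5 of 74. Letters of 3 other factors were also looked for: TGACCTTG of the oestrogen-related receptors was in 1 of 74 (1.35%, all promoters 1.33%), ATGGCGGC of YY1 in 1 of 74 (all promoters 1.15%) and CCAAT of NF-Y in 25 of 74 (33.8%, all promoters 34.0%). A match describes letters in a window and is not a site of binding.

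Printed below are windows around the palindrome, the letters whose share here had the largest ratio to that in all promoters. They come from 5 members, of complexes I, III and V and cytochrome c. Each runs 5′ to 3′ on the strand of the gene, with the palindrome and any ETS core in capitals. The windows are chr9:1637482-1637561 (plus strand) for the complex I subunit Ndufa11, chr8:118468149-118468222 (plus) for the complex III core protein Uqcrc1, chr4:80984882-80984961 (minus) for cytochrome c, Cycs, and chr14:1464749-1464828 (plus) and chr11:44657498-44657577 (minus) for the complex V subunits Atp5me and Atp5po. The first base of the palindrome lay 96, 38, 158, 75 and 58 bases before the start, in that order.
Ndufa11: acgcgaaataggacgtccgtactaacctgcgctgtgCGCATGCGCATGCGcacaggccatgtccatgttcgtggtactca
Uqcrc1: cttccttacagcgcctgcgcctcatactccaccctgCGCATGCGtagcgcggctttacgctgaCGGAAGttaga
Cycs: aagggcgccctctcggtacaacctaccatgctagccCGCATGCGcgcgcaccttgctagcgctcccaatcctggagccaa
Atp5me: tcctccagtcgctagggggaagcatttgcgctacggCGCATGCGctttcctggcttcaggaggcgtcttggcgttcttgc
Atp5po: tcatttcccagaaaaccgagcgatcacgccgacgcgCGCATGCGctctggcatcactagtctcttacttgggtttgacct
In Uqcrc1 the window holds 1 ETS core downstream of the palindrome, and in Ndufa11 the palindrome occurs as a pair that overlaps. These 5 genes had differences between the groups of 0.11, -0.14, -0.02, 0.16 and 0.01 log2 units in the order printed.

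Levels below are log2 processed intensities relative to the 75th percentile of the array, so that 0 is that percentile, and differences are phenylbutazone minus vehicle in log2 units ± standard error with 3 arrays per group. On an array, 65.2% to 68.4% of probes were well above background, and no spot was saturated. Slide 1 held vehicle arrays 1 and 2. Slide 2, scanned on another day, held all phenylbutazone arrays together with vehicle array 3. On the first principal component over all genes tested, the vehicle group spanned -41.2 (array 1) to 52.3 (array 3), and phenylbutazone spanned 1.1 to 18.9. Markers of the proximal tubule were well above background on all 6 arrays in 15 of 15 genes, with a summed level of 2387 to 2589 times the 75th percentile. Markers of the inner medulla summed to between 1.75 and 2.3 in all 6 arrays, and those of striated muscle to at most 0.305.

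All 83 genes tested were well above background on all 6 arrays, as were 149 of the 152 probes, and none passed the test for a difference between the groups. With limma and Benjamini-Hochberg adjustment over all genes, 0 of 83 had an adjusted p under 0.05, and the share called among all genes was 0%. The lowest adjusted p of a member was 0.401, and limma with an intensity trend called 0 members too. At an unadjusted p under 0.05 limma gave 1 of 83 members (1.2%), Atp5f1b, beside 12.2% of all genes tested. The groups did not overlap in 15 of 83 members (18.1%), against 21.5% of all genes: 12 members lay higher in phenylbutazone, where 12.1% of all genes did, and 3 lower, where 9.39% did. Those higher were Ndufv3, Ndufa1, Ndufb7, Ndufv1, Ndufs7, Uqcr11, Cox4i1, Atp5if1, Atp5f1e, Atp5me, Atp5f1a and Ndufaf1, and those lower were Atp5f1b, Cox6a2 and Sdhb. Of these 15 members 10 had a further tested probe, and in 9 of the 10 at least 1 further probe had the opposite sign (11 of 14 further probes), the exception being Ndufa1.

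The differences were small and centred near those of all genes. The median over the 83 members was 0.02, with 51 above 0 and 32 below, beside a median of 0.02 over all genes. Scaling each array to its median gave 61 of 83 above 0 and quantile normalization gave 28 of 83, so the balance of signs depends on the scaling and no direction is drawn from it. Of the 83 differences, 52 were under 0.1 log2 units in size and 73 under 0.2, and they ran from -0.67 for Cox7c to 0.33 for Ndufb8. The 95% interval lay within a 1.5-fold change in either direction in 72 of 83 members (86.7%), against 54.2% of all genes, and within a 2-fold change in 80 of 83. The intervals that reached beyond 2-fold were those of Cox7c, Cox4i2 and the pseudogene Cox6c-ps1. The median standard error was 0.11 for members and 0.15 for all genes. Narrow intervals were not particular to the chain. In the lists of related mitochondrial genes below, the share within a 1.5-fold change ran from 75% (biogenesis regulators) to 97.0% (mitochondrial ribosomal proteins). All members were well above background on all 6 arrays. A gene needed only 3 such arrays to be tested, but 27508 of the 29938 genes tested had a probe with all 6.

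**Figure D1:**
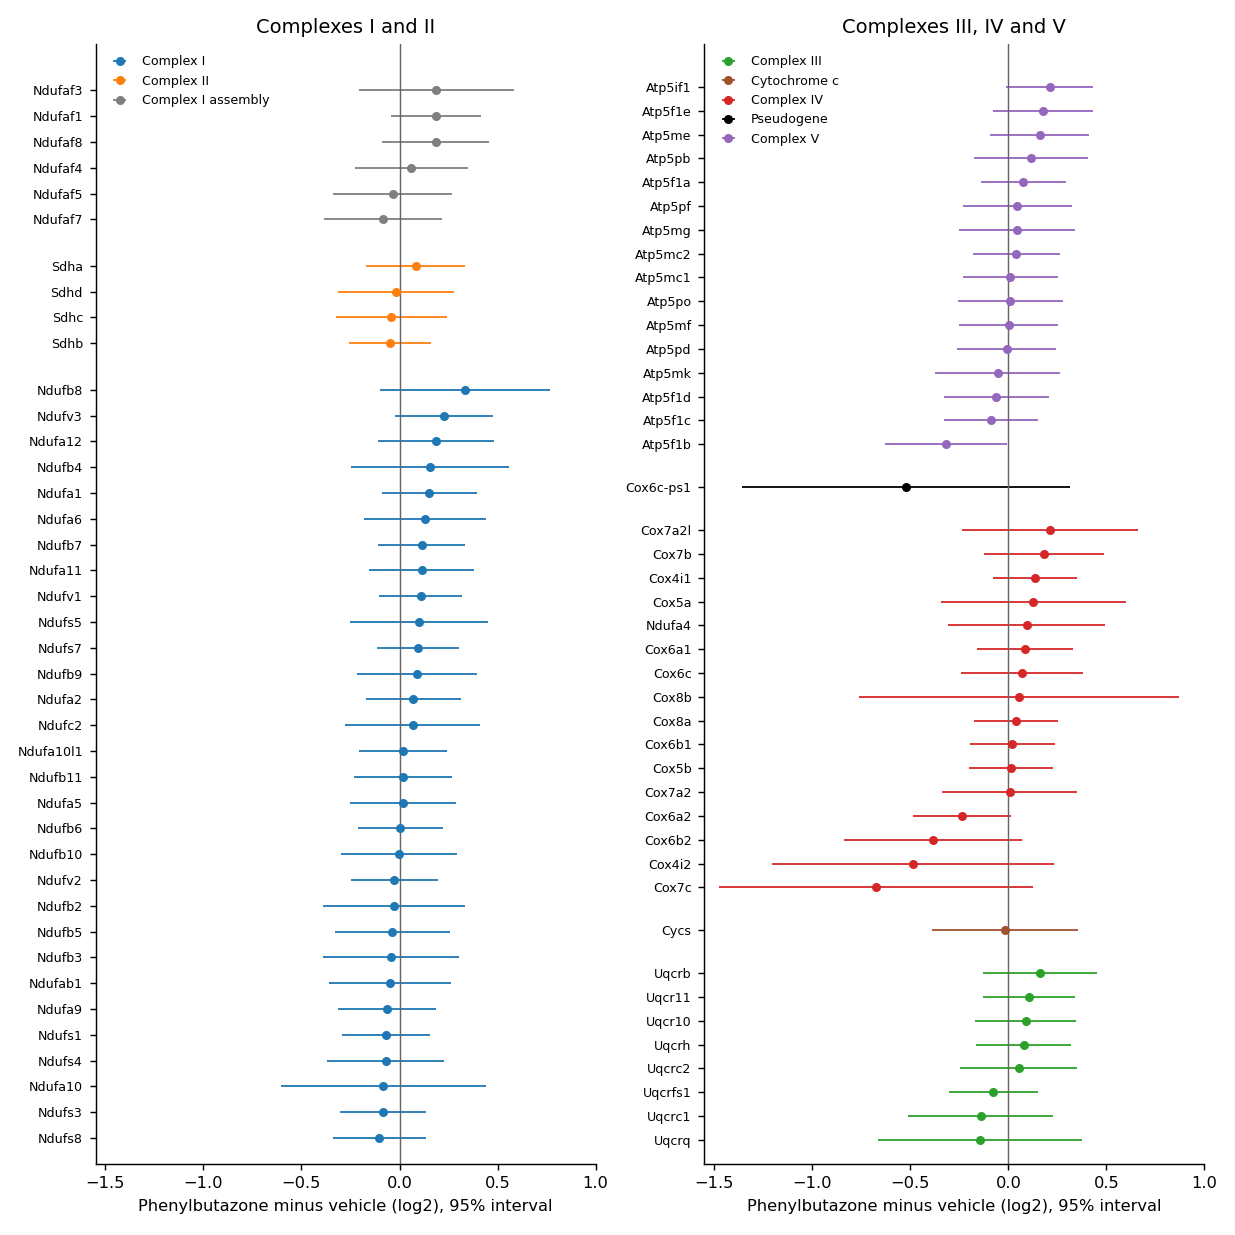
Difference between the phenylbutazone and vehicle groups for 82 of the 83 genes tested, in log2 units on the horizontal axis, with the 95% interval of limma as a bar and genes grouped by complex. Intervals include 0 for all genes shown but Atp5f1b, and the widest among the subunits are those of Cox8b, Cox7c and Cox4i2.

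**Figure D2:**
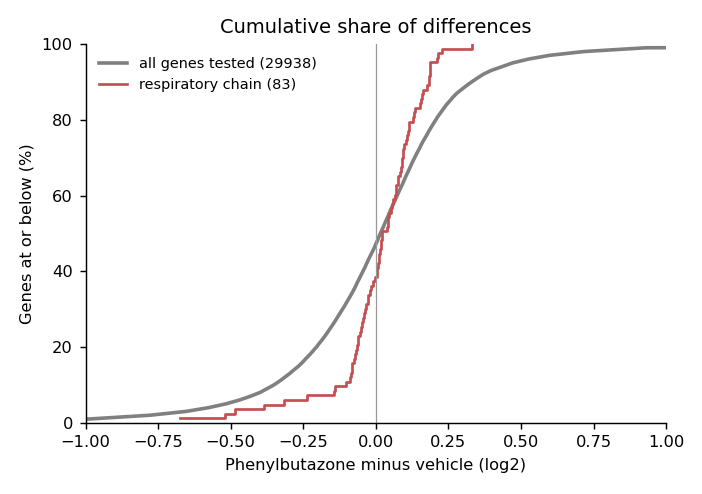
Cumulative share of genes (vertical axis, percent) at or below a given difference (horizontal axis, log2 units, shown from -1 to 1), for the 83 respiratory chain genes and for all 29938 genes tested. The curve of the respiratory chain genes is steeper, with 73 of 83 differences within 0.2 log2 units of 0.

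Complex I, the NADH dehydrogenase, had 31 members tested, 18 above 0 and 13 below, with a median difference of 0.02. The 4 members of smallest p all lay above 0. Ndufv3, an accessory subunit beside the NADH-binding flavoprotein, stood at 6.66, 6.67 and 6.45 on vehicle arrays 1 to 3 and at 6.87, 6.79 and 6.81 on phenylbutazone arrays 1 to 3. Its groups did not overlap, and the difference was 0.23 ± 0.10 (limma adjusted p = 0.443), while its 3 further probes gave -0.05, 0.10 and 0.13. Ndufb8, an accessory subunit of the membrane arm, stood at 7.21, 7.44 and 7.08 on the vehicle arrays and at 7.77, 7.70 and 7.25 on the phenylbutazone arrays. Its groups overlapped because phenylbutazone array 3 lay below vehicle array 2, and the difference was 0.33 ± 0.18 (limma adjusted p = 0.498).

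Ndufa12, an accessory subunit of the matrix arm, stood at 6.43, 6.50 and 6.27 in vehicle and at 6.76, 6.50 and 6.50 in phenylbutazone, a difference of 0.19 ± 0.12. Ndufa1, a small membrane subunit needed for assembly of the complex, stood at 6.61, 6.54 and 6.40 in vehicle and at 6.72, 6.65 and 6.63 in phenylbutazone, a difference of 0.15 ± 0.10. Vehicle array 3 was the lowest array for both, and only Ndufa1 had groups apart. In the catalytic core, Ndufv1, which binds NADH and the flavin, stood at 6.25, 6.25 and 6.17 in vehicle and at 6.34, 6.30 and 6.35 in phenylbutazone, a difference of 0.11 ± 0.09. Ndufs1, the largest subunit and a carrier of iron-sulphur clusters, stood at 5.09, 5.10 and 5.04 in vehicle and at 5.09, 4.98 and 4.95 in phenylbutazone, a difference of -0.07 ± 0.09. Ndufv1 had groups apart, with -0.08 on its other probe, and Ndufs1 did not, and neither passed the test. Among other core subunits, Ndufs7, which holds a cluster next to the coenzyme Q site, had a difference of 0.09 with groups apart and one of -0.13 on its other probe, and Ndufs3, Ndufs8 and Ndufv2 had overlapping groups and differences from -0.10 (Ndufs8) to -0.03 (Ndufv2). Over the whole complex the 95% interval lay within a 1.5-fold change in 29 of 31 members, the exceptions being Ndufb8 and Ndufa10.

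The 6 assembly factors, which help build complex I and leave it, had a median difference of 0.12, with 4 above 0. Ndufaf1, which acts on the membrane arm intermediate, stood at -0.64, -0.78 and -0.81 in vehicle and at -0.56, -0.57 and -0.53 in phenylbutazone. It was the assembly factor whose groups did not overlap, with a difference of 0.19 ± 0.09 (limma adjusted p = 0.479). Ndufaf8 stood at 4.46, 4.31 and 4.21 in vehicle and at 4.62, 4.48 and 4.43 in phenylbutazone, and Ndufaf3 at 3.11, 3.06 and 2.58 against 3.11, 3.04 and 3.16. The lower mean of Ndufaf3 in vehicle, with a difference of 0.19 ± 0.16, came from vehicle array 3: without that array the difference was 0.02. The other probe of Ndufaf3 gave -0.06, and on it vehicle array 3 was the highest of the 6 arrays, at 2.08. Ndufaf4, with the palindrome in its promoter window, stood at 1.48, 1.54 and 1.23 in vehicle and at 1.57, 1.42 and 1.45 in phenylbutazone. Ndufaf5 stood at 2.52, 2.60 and 2.28 against 2.55, 2.40 and 2.34, and Ndufaf7, a methyltransferase, at -0.06, -0.07 and 0.08 against 0.09, -0.14 and -0.26. The groups of all 3 overlapped, with differences of 0.06, -0.04 and -0.09.

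Complex II, succinate dehydrogenase, is shared with the citric acid cycle. Its 4 subunits had differences of at most 0.08 in size on the probe that represents each gene. Sdha, the flavoprotein that oxidises succinate, stood at 6.97, 6.87 and 6.88 in vehicle and at 7.13, 6.94 and 6.90 in phenylbutazone. The difference was 0.08 ± 0.10, with -0.11 on its other probe. Sdhb, the iron-sulphur subunit, stood at 5.44, 5.47 and 5.45 in vehicle and at 5.43, 5.37 and 5.41 in phenylbutazone. Its groups were apart by only 0.0067 between the nearest arrays, and the difference of -0.05 ± 0.09 had a limma adjusted p of 0.841, with 0.05 on the other probe. The membrane anchors Sdhc and Sdhd were both lowest on vehicle array 3. Sdhc stood at 5.23, 5.23 and 4.94 in vehicle and at 5.14, 5.08 and 5.05 in phenylbutazone, and Sdhd at 6.17, 6.10 and 5.83 against 6.09, 5.95 and 6.01.

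Complex III, the cytochrome bc1 complex, had 8 members tested, 5 above 0 and 3 below, with a median difference of 0.07. Cyc1, its cytochrome c1, was not analysed here. Uqcrb, which lies by the coenzyme Q site, stood at 6.98, 6.92 and 6.72 in vehicle and at 7.17, 6.95 and 6.99 in phenylbutazone, a difference of 0.16 ± 0.12. Uqcr11, a small accessory subunit, stood at 6.40, 6.43 and 6.34 in vehicle and at 6.60, 6.45 and 6.43 in phenylbutazone, a difference of 0.11 ± 0.10. It was the complex III member whose groups did not overlap, and the nearest arrays of its groups differed by 0.0048. Both further probes of Uqcr11 lay on the other side of 0, at -0.06 and -0.03. Uqcr10 stood at 7.89, 7.98 and 7.71 against 7.94, 7.96 and 7.95, which is a spread of 0.14 (SD) in vehicle and 0.01 in phenylbutazone. Uqcrfs1, the Rieske iron-sulphur protein that takes electrons from coenzyme Q, stood at 5.99, 6.0 and 5.92 in vehicle and at 5.98, 5.86 and 5.83 in phenylbutazone, a difference of -0.08 ± 0.09.

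Uqcrc1, a core protein of complex III, stood apart from most members in its pattern. It stood at 5.14, 5.10 and 5.58 in vehicle and at 5.19, 5.12 and 5.08 in phenylbutazone, so that vehicle array 3 was the highest of the 6 and the other 5 arrays lay close together. The difference was -0.14 ± 0.15 with all arrays (limma adjusted p = 0.735), 0.01 without vehicle array 3 and -0.45 against vehicle array 3 alone. Cytochrome c, Cycs, the mobile carrier between complexes III and IV, showed the reverse. It stood at 6.93, 6.93 and 6.45 in vehicle and at 6.77, 6.72 and 6.77 in phenylbutazone, a difference of -0.02 ± 0.15, which became 0.30 against vehicle array 3 alone and -0.18 without it.

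Complex IV, cytochrome c oxidase, held the widest range of differences and the isoform pairs. Of its 16 members tested, 12 lay above 0 and 4 below, with a median of 0.05. The ubiquitous regulatory subunit Cox4i1 stood at 7.69, 7.68 and 7.66 in vehicle and at 7.88, 7.78 and 7.78 in phenylbutazone. Its groups did not overlap, and the difference was 0.14 ± 0.09 (limma adjusted p = 0.570), with -0.01 on its other probe. Its isoform Cox4i2, known from lung and from hypoxia responses, stood at 2.51, 2.41 and 1.43 in vehicle and at 1.78, 1.59 and 1.53 in phenylbutazone. That difference of -0.49 ± 0.30 (limma adjusted p = 0.544) divided the arrays by slide and not by treatment. A further probe of Cox4i2 gave a difference of -0.06.

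The muscle and liver-type isoforms of complex IV were both measured. Cox6a1, the form found in most tissues, stood at 8.52, 8.49 and 8.32 in vehicle and at 8.58, 8.52 and 8.49 in phenylbutazone, a difference of 0.09 ± 0.10. Cox6a2, the heart and skeletal muscle form, stood at -1.18, -1.19 and -1.14 in vehicle and at -1.27, -1.53 and -1.42 in phenylbutazone. Cox6a2 had groups apart, with a difference of -0.24 ± 0.10 (limma adjusted p = 0.432), but its 2 further probes gave 0.04 and 0.40, and under 19 alternatives the difference ran from -0.30 to 0.07. Its muscle partner Cox7a1 was not analysed here. Of 7 striated muscle markers, 1 was well above background on all 6 arrays. Cox8a, the common form, stood at 8.03, 7.97 and 7.97 in vehicle and at 8.08, 8.01 and 7.99 in phenylbutazone, a difference of 0.04 ± 0.09. Cox8b, another muscle form, stood at -1.24, -1.45 and -1.74 in vehicle and at -2.17, -1.18 and -0.92 in phenylbutazone, a difference of 0.05 ± 0.34. The phenylbutazone arrays of Cox8b thus lay on both sides of the vehicle arrays, with an SD of 0.66. Cox8c, the testis form, was not well above background on any array with either of its 2 probes and was not tested.

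Cox7a2, the non-muscle form of its subunit, stood at 6.18, 6.12 and 5.74 in vehicle and at 6.06, 6.03 and 5.97 in phenylbutazone, a difference of 0.01 ± 0.14. Cox5a, a subunit on the matrix side, stood at 6.54, 6.65 and 5.97 in vehicle and at 6.63, 6.45 and 6.46 in phenylbutazone, a difference of 0.13 ± 0.19. Ndufa4 stood at 6.87, 6.84 and 6.35 in vehicle and at 6.88, 6.72 and 6.75 in phenylbutazone, a difference of 0.09 ± 0.16. In all 3 genes vehicle array 3 was the lowest of the 6, and against it alone the differences were 0.28, 0.54 and 0.43. Cox6b2, the testis form of a subunit facing cytochrome c, went the other way. It stood at 3.02, 3.23 and 3.63 in vehicle and at 3.02, 3.00 and 2.71 in phenylbutazone, a difference of -0.39 ± 0.19 (limma adjusted p = 0.463) with overlapping groups, and its other probe gave 0.19.

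Cox7c, a small subunit of the complex without a tissue isoform in this set, had the largest difference of any member. It stood at 3.31, 3.31 and 2.15 in vehicle and at 2.42, 2.17 and 2.15 in phenylbutazone. The mean was 1.6-fold lower in phenylbutazone, -0.67 ± 0.33 (limma adjusted p = 0.466), but vehicle array 3 lay with the phenylbutazone arrays, which share its slide. Against vehicle array 3 alone the difference was 0.10, and without that array it was -1.06. The pseudogene Cox6c-ps1 showed the same division, at 3.40, 3.26 and 2.12 in vehicle and at 2.56, 2.31 and 2.35 in phenylbutazone, and so did its other probe, at -3.59, -3.81 and -5.24 against -4.80, -5.11 and -4.83. Its parent gene Cox6c had a difference of 0.07 ± 0.13 and a difference between slides of -0.13.

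**Figure D3:**
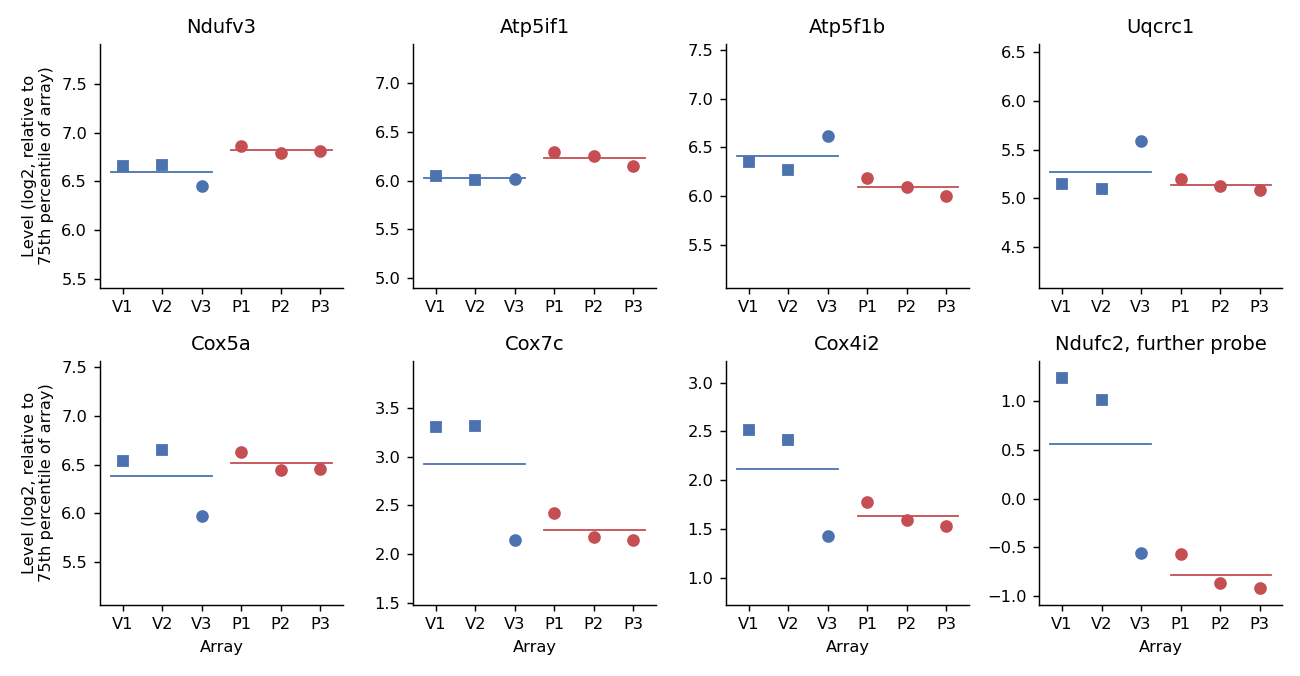
Level of 8 probes on each array (vertical axis, log2 relative to the array's 75th percentile, the same span of 2.5 units in each panel) for vehicle arrays V1 to V3 and phenylbutazone arrays P1 to P3. Squares are arrays of slide 1, circles arrays of slide 2, and lines are group means. Cox7c, Cox4i2 and the further probe of Ndufc2 divide by slide, Cox5a is low on V3, and Uqcrc1 and Atp5f1b are high on V3.

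The division by slide was looked at over all members, since slide and scan day split the arrays in the same way and their parts cannot be told apart. The 2 arrays of slide 1 lay fully above or below the 4 of slide 2 in 26 of 83 members (31.3%), against 28.7% of all genes. Slide 2 was lower in 23 of them, where 16.3% of all genes were, and higher in 3, where 12.4% were: Ndufb7, Ndufa11 and Atp5mc2. Most such differences were small: on 5 of 149 member probes (3.36%) the slides were apart by at least 1.5-fold, against 5.89% of the 41006 probes tested. Those 5 were the probes of Cox7c and Cox4i2 given above, both probes of Cox6c-ps1 and a further probe of Ndufc2, a complex I membrane subunit. That further Ndufc2 probe stood at 1.23, 1.01 and -0.56 in vehicle and at -0.57, -0.87 and -0.91 in phenylbutazone, a difference of -1.35, whereas the probe that represents the gene gave 0.07 ± 0.14. An RNA spike-in control that was read on every array differed too, with a median spot at 377 to 407 times the 75th percentile on slide 1 and 564 to 609 times on slide 2.

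Complex V, ATP synthase, had 16 members tested, 11 above 0 and 5 below, with a median difference of 0.02. Its groups did not overlap in 5 of 16 members, beside 21.5% of all genes. Atp5f1b, the catalytic beta subunit of the F1 head, was the member of smallest p. It stood at 6.35, 6.27 and 6.62 in vehicle and at 6.18, 6.10 and 6.0 in phenylbutazone. Every phenylbutazone array lay below every vehicle array, by 0.086 at the nearest, and the mean was 1.25-fold lower at -0.32 ± 0.13 (limma unadjusted p = 0.0455, adjusted p = 0.401). The gene had 1 probe, and vehicle array 3 was its highest array. Against that array alone the difference was -0.53, and without it -0.21. The difference lay between -0.53 and -0.21 over 19 alternatives, with limma adjusted p from 0.0631 to 0.738, and it did not pass in any of them.

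Atp5f1a, the alpha subunit that alternates with beta in the same head, lay the other way, at 8.85, 8.83 and 8.73 in vehicle and at 8.90, 8.86 and 8.88 in phenylbutazone, a difference of 0.08 ± 0.09. Its groups were apart by 0.0093 at the nearest arrays, and its other probe gave -0.12. The gamma, delta and epsilon subunits of the stalk, Atp5f1c, Atp5f1d and Atp5f1e, had differences of -0.09, -0.06 and 0.18. Atp5f1e stood at 7.82, 7.80 and 7.61 in vehicle and at 8.0, 7.89 and 7.87 in phenylbutazone, with groups apart and a limma adjusted p of 0.533. Atp5me, a small membrane subunit that supports dimers of the enzyme, stood at 8.20, 8.12 and 8.03 in vehicle and at 8.39, 8.22 and 8.22 in phenylbutazone, a difference of 0.16 ± 0.10.

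Atp5if1, the inhibitor that stops the enzyme from hydrolysing ATP when the membrane potential collapses, stood at 6.05, 6.01 and 6.02 in vehicle and at 6.30, 6.25 and 6.15 in phenylbutazone. The vehicle arrays lay within 0.039 of each other and below all phenylbutazone arrays, and the mean was 1.16-fold higher at 0.21 ± 0.09 (limma adjusted p = 0.427). It did not turn on vehicle array 3: the difference was 0.21 against vehicle array 3 alone and 0.21 without that array. Over 19 alternatives it ran from 0.10 to 0.26, with limma adjusted p from 0.203 to 0.731. The isoform genes of subunit c, which form the rotor ring from identical mature proteins, showed little. Atp5mc1 stood at 7.29, 7.32 and 7.42 in vehicle and at 7.46, 7.29 and 7.30 in phenylbutazone, and Atp5mc2 at 7.14, 7.13 and 7.23 against 7.27, 7.17 and 7.18. Both pairs of groups overlapped, with differences of 0.01 ± 0.10 and 0.04 ± 0.09, and Atp5mc3 was not analysed here.

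What most members shared was the position of vehicle array 3. It was the lowest of the 6 arrays in 58 of 83 members (69.9%), against 34.3% of all genes tested, and the highest in 7: Cox6a2, Cox6b2, Ndufs8, Ndufa11, Uqcrc1, Atp5f1b and Atp5f1d. Over all 149 member probes it was lowest in 90 (60.4%), against 30.5% of the probes tested. The position could differ between probes of a gene. On a further probe of Atp5f1a, Cox4i1, Ndufv1 and Ndufv3, each lowest there on the representing probe, vehicle array 3 was the highest. The part of the probe in this position was not tested. By complex, on the representing probes, vehicle array 3 was lowest in 23 of 31 members of complex I, 2 of 4 of complex II, 6 of 8 of complex III, 11 of 16 of complex IV and 9 of 16 of complex V. The median member lay 0.20 log2 units lower on vehicle array 3 than on the mean of vehicle arrays 1 and 2, with -0.33 for complex IV and -0.15 for complex V, against -0.07 over all genes. The phenylbutazone mean lay above vehicle array 3 in 69 of 83 members, with a median of 0.18 against 0.06 over all genes.

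**Figure D4:**
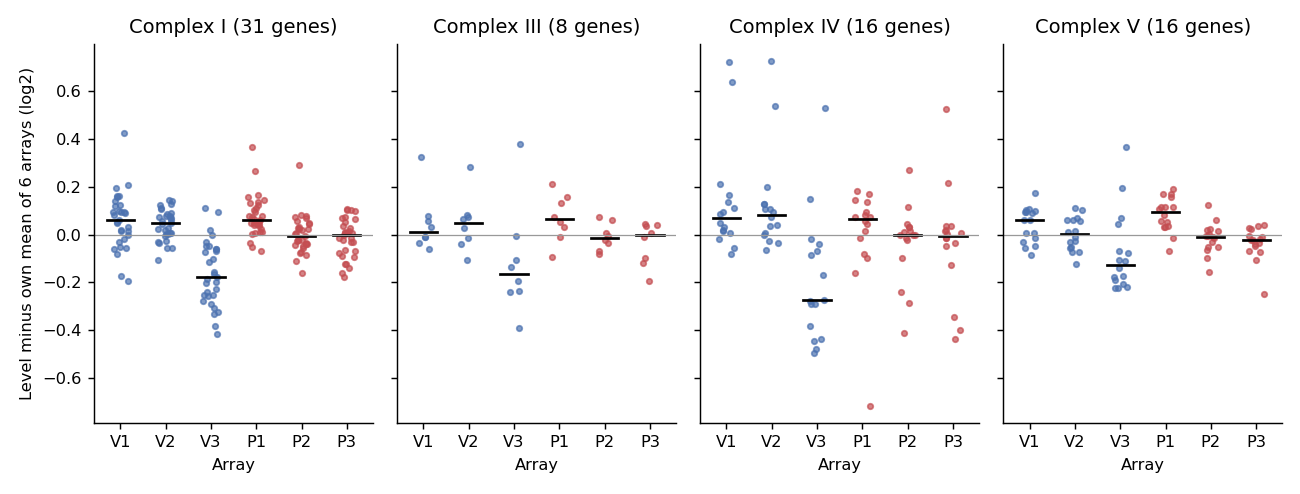
Level of each member minus its own mean over the 6 arrays (vertical axis, log2), by array, for complexes I, III, IV and V, with vehicle arrays V1 to V3 in blue, phenylbutazone arrays P1 to P3 in red and black lines at the medians. The medians of V3 lie at -0.18, -0.16, -0.28 and -0.13 in that order, below those of every other array.

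The comparison of the groups over the members therefore turns on that array. Without vehicle array 3 the median difference was -0.04, with 33 of 83 above 0, and with slide as a fixed block, which compares the phenylbutazone arrays with vehicle array 3, it was 0.18, with 69 of 83 above 0. The block gave 23 of 83 members (27.7%) an unadjusted p under 0.05, against 31.6% of all genes, and 0 of 83 passed, with a lowest limma adjusted p of 0.0594 for Ndufaf3. Without vehicle array 3, slide and treatment divide the arrays in the same way, and 3 of 83 members passed, beside 814 of all 29938 genes. The 3 were Cox7c, Cox4i2 and Cox6c-ps1, all lower and all of them divided by slide. The other 80 members had no limma adjusted p under 0.05 in any of the 19 alternatives.

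Other gene groups were low on vehicle array 3 too. The 5 markers of the thick ascending limb, a segment also rich in mitochondria, summed to 185 times the 75th percentile on that array. On the other 5 arrays they summed to between 293 and 407. Umod, which made up most of the sum, stood at 7.40 against 8.05 to 8.54, and Slc12a1 at 3.24 against 4.06 to 4.75. Kcnj1, another of the 5 markers, was highest on vehicle array 3. The median of the 5 was -0.68 on vehicle array 3 relative to arrays 1 and 2, whereas for the 15 proximal tubule markers it was 0.03. Over the other marker lists this median ran from -0.74 (adipocyte) to 0.10 (smooth muscle and pericyte). It was -0.43 for inner medulla, -0.33 for distal tubule and -0.20 for collecting duct, so the thick ascending limb was not alone. Mitochondrial ribosomal protein genes were lowest on vehicle array 3 in 42 of 67 (62.7%) and the cytosolic ribosomal list in 73 of 88 (83.0%). The part of the thick ascending limb, of slide or of that animal in the members' levels was not tested. In whole cortex fewer cells of a segment and less RNA per cell cannot be told apart.

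The genes around the respiratory chain were described from lists by function, and 0 genes of any of them passed limma with adjustment over all genes. Of 40 other assembly factors, 27 lay above 0 and 13 below, with a median of 0.05, and 3 of 40 had an unadjusted p under 0.05, a smaller share than the 12.2% of all genes. Sdhaf1, which inserts iron-sulphur clusters into Sdhb, stood at 3.84, 3.74 and 3.66 in vehicle and at 4.12, 4.13 and 4.11 in phenylbutazone, a difference of 0.38 ± 0.09 (limma adjusted p = 0.283). Every phenylbutazone array of Sdhaf1 lay above every vehicle array, while its client Sdhb had a difference of -0.05. Ecsit, a complex I assembly factor, had a difference of 0.28 and Atpaf1, a chaperone of the beta subunit Atp5f1b, one of -0.22, both with groups apart.

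Pyruvate dehydrogenase and the citric acid cycle, which supply NADH and succinate, had 14 of 18 genes below 0 and a median of -0.05. Idh3a, the catalytic subunit of the NAD-dependent isocitrate dehydrogenase, had a difference of -0.62 ± 0.15 (limma adjusted p = 0.276), Sucla2, a subunit of succinyl-CoA synthetase, -0.24 ± 0.08, and Dlat, the acetyltransferase of pyruvate dehydrogenase, -0.31 ± 0.12. These 3 of 18 had an unadjusted p under 0.05, beside 12.2% of all genes, and the groups were apart in 6 of 18 (33.3%), beside 21.5%. Vehicle array 3 was the lowest array in 6 of the 18, and slide 2 lay fully below slide 1 in 7 of them, beside 16.3% of all genes. The 20 regulators of mitochondrial biogenesis and mitochondrial DNA expression had 16 above 0 and a median of 0.12, the smallest p values being those of the deacetylase Sirt3 at 0.29, the factor Yy1 at 0.21 and the single-strand binding protein Ssbp1 at 0.22, with 0 of 20 at an unadjusted p under 0.05. Nrf1, whose protein binds the palindrome shown above, had a difference of 0.18 ± 0.13.

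Of 19 genes of other electron entry and coenzyme Q synthesis, 8 lay above 0. Coq10a, which binds coenzyme Q, had a difference of -0.39 ± 0.12 and Prodh, which feeds electrons from proline, 0.38 ± 0.14, both with groups apart, and Coq2, which attaches the coenzyme's tail, 0.23. Of 11 carriers, pores and uncoupling proteins, 8 lay above 0, and the smallest p values were those of Slc25a11 and Slc25a10, at -0.13 and -0.27, and of Ucp1, which was well above background on all 3 vehicle arrays and on 2 of 3 phenylbutazone arrays. Of 8 genes of mitochondrial peroxide and superoxide defence, 6 lay above 0 and the groups were apart in 4, all higher, beside 12.1% of all genes. Among them Sod2, which removes the superoxide that complexes I and III leak, stood at 2.81, 2.89 and 2.93 in vehicle and at 3.23, 3.10 and 3.67 in phenylbutazone, a difference of 0.45 ± 0.16 (limma adjusted p = 0.370). Gpx4 and Nnt followed at 0.20 and 0.16, and vehicle array 3 was the lowest array in 0 of these 8 genes. In 6 of the 8, however, all arrays of slide 2 lay above those of slide 1, beside 12.4% of all genes, and the part of slide in the group difference was not tested.

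**Figure D5:**
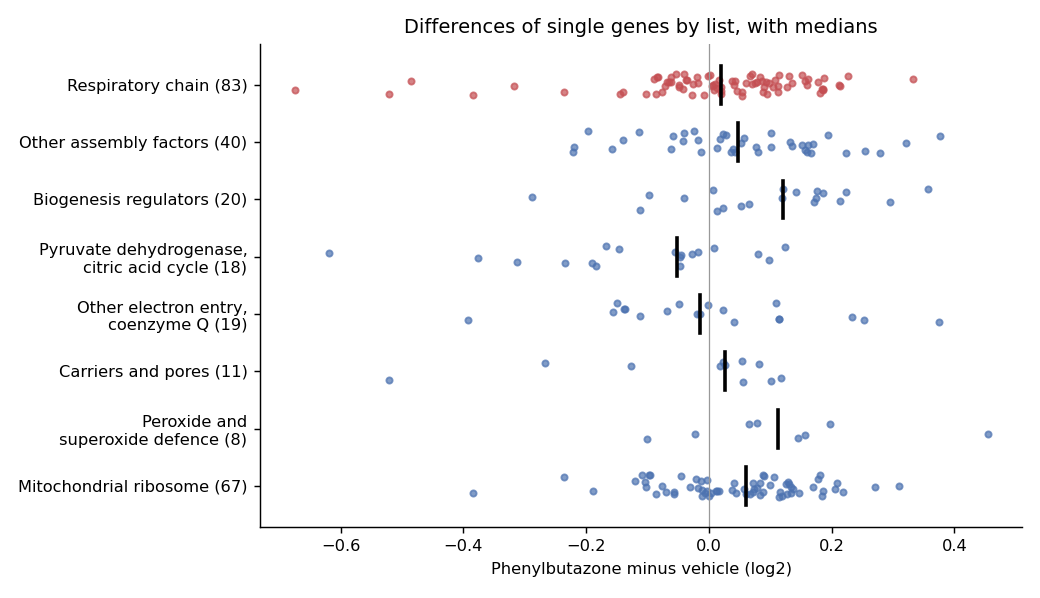
Difference of each gene (horizontal axis, phenylbutazone minus vehicle in log2 units) for the respiratory chain and 7 lists of related mitochondrial genes, with the number of genes tested in brackets and black bars at the medians. Medians run from -0.05 for the citric acid cycle to 0.12 for the biogenesis regulators, and points of every list lie on both sides of 0.

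Genes of the mitochondrial and cytosolic ribosomes were set beside those of the chain. Of 67 mitochondrial ribosomal protein genes 43 lay above 0, with a median of 0.06, the smallest p values being those of Mrpl30 at 0.31, Mrpl49 at -0.24 and Mrpl47 at 0.22. Of the 88 genes of the cytosolic ribosomal list, 81 lay above 0, with a median of 0.18, and the groups were apart in 53 (60.2%), against 15 of 83 (18.1%) of the respiratory chain and 21.5% of all genes. Among the smallest p values of that list were those of Rps6ka3 at -0.33 and Rpl10 at 0.31, of which Rps6ka3 encodes a kinase that the symbol prefix takes and no ribosomal protein. The 13 subunits encoded in mitochondrial DNA were not analysed here, so the values above cover the nuclear part of each complex.

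Probes of one gene were set against each other for the 44 members with more than 1 tested probe. Of 66 further probes, 27 had the opposite sign to the probe that represents the gene. For 2, those of Ndufc2 and Cox6b2, the gap to that probe exceeded 2 combined standard errors. The standard errors of both probes were combined as if independent, though they were read on the same arrays. Erythrocyte markers lay above 0 in 7 of 7 genes, with a median of 0.48 and groups that overlapped in all 7, and summed to 641 to 894 times the 75th percentile in vehicle and 768 to 1252 in phenylbutazone. Their part in the members' levels was not tested.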

How the data were processed

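Renal cortex RNA of 6 rats was measured on one-colour arrays, 1 per animal, labelled with Cy3 per the labels' protocols. Images were read with Agilent Feature Extraction 10.7, per the submitters' processing notes. The deposited scanner files hold the processed intensity of each spot on a linear scale, background-subtracted within the array and not normalized between arrays, per the file headers, and the array design names the rat build rn4. The deposited value table holds a ratio: it was the processed intensity over the array's 75th percentile, within 2% for all probes compared, with medians of 0.105 to 0.110.

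The level used was log2 of the processed intensity minus the array's 75th percentile of it over non-control probes. Probes with an outlier flag (40) were left out, probes had to be well above background on 3 or more of the 6 arrays, and each gene was represented by its probe of highest mean. Accessions named 28206 of 61537 probes through a RefSeq table of GRCr8. The groups were compared in R 4.3.3 by limma 3.58.1 (lmFit, then eBayes), two-sided, with Benjamini-Hochberg adjustment over 29938 genes and a threshold of 0.05. With 3 arrays per group, their number sets the precision.

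Members and lists were chosen with earlier results of these data known, and the promoter letters after the promoters had been looked at. Named were the 4 members of smallest p in each complex, fixed core subunits, isoform genes, the inhibitor and assembly factors, and 3 genes per list; some genes are not reported here by name. Others are named after their values were seen: those whose groups or slides lay apart, those of wide interval, those highest on vehicle array 3, the remaining core and stalk subunits, Ndufc2, Nrf1, and 2 thick ascending limb markers with Kcnj1.

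Alternatives were median scaling, normexp (offset 50, on the median spot intensity), quantile normalization, the deposited ratios, other filters on dim probes, every probe or the gene mean, an eBayes trend on intensity, a fixed block for slide, a random one, the arrays of slide 2 only, a block for the replicate number, and each array left out in turn. On simulated data for this comparison, with 29938 genes, the fit was tested: it recovered 49% of 100 genes set to a 2-fold change and 90% of 100 set to 4-fold, and made 10 false calls.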

Additional observations from a re-analysis of the deposited data

How the results depend on the processing

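Over 19 alternatives, 0 members passed in 18, and the number ran from 0 to 3 when 1 array was left out. The 3 of 83, found without vehicle array 3 where 814 of 29938 genes passed, were Cox6c-ps1, Cox7c (-1.06, limma adjusted p = 0.0281) and Cox4i2 (-0.83, 0.0371). Over all genes 0 passed, against 2 with normexp, 1 with quantile normalization, 8 with an intensity trend, 1 with slide as a random block and 0 to 814 when 1 array was left out. The median difference of the members was 0.02, and 0.18 with slide as a fixed block or on slide 2 alone, 0.12 with slide as a random block and -0.04 to 0.06 when 1 array was left out. Quantile normalization gave -0.06 and median scaling 0.07. Cox4i2 turned to 0.20 with slide as a fixed block and on slide 2 alone, a setting that takes the lone vehicle array to vary as much as the phenylbutazone arrays do. Of 760 differences of the 40 named members under the alternatives, 756 kept their side of the threshold without a change of sign between values that both exceeded their standard error, but 21 of the 40 members had values on both sides of 0, among them Cox7c (up to 0.10), Cox5a (-0.08 to 0.54), Cycs (-0.18 to 0.30) and Cox6a2 (up to 0.07). The replicate block left 0 members and 0 genes passing and a median of 0.02. Deviations of arrays with the same number correlated at -0.03, 0.01 and -0.07, and those of arrays with different numbers at -0.10 to 0.10. As the deviations were taken within groups of 3, these values cannot decide whether the numbers pair the animals. No gene list or outlying array was tested beyond these, as groups of 3 are too small for a test of outliers. The 13 mitochondrially encoded subunits were not analysed here.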
